A study of Mus musculus with 6 samples.

Results

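The genes described here are 37 mouse genes for the chaperones, folding enzymes and degradation factors of the endoplasmic reticulum (ER), together with the sensors that report on protein folding in that compartment. They were matched by gene symbol against a list of names, with no threshold on a measured value, and all 37 were found among the 38124 rows of the deposited expression table. RNA was measured in macrophages grown in culture from bone marrow of wild-type C57BL mice. The untreated group had 3 libraries. The treated group, also of 3 libraries, came from macrophages kept for 24 hr with thymocytes that had been made apoptotic by dexamethasone (a synthetic glucocorticoid hormone). The labels state the ratio as 1:40, and thymocytes were removed ahead of RNA extraction. The labels used here name no group given dexamethasone alone. Each sample is a biological replicate according to the design text.

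Secreted and membrane proteins enter the ER unfolded. There, Hsp70 and Hsp90 chaperones hold them, protein disulfide isomerases form and reshuffle their disulfide bonds, and the lectin chaperones calreticulin and calnexin retain glycoproteins until they are folded. Proteins that fail are returned to the cytosol and broken down, a route called ER-associated degradation (ERAD). The membrane sensors ATF6, IRE1 (Ern1) and PERK (Eif2ak3) adjust this machinery to its load by the unfolded protein response. In that response, cleaved ATF6 and spliced XBP1 bind short promoter elements, and PERK acts through phosphorylation of eIF2alpha and translation of ATF4. Macrophages depend on this compartment for their secreted enzymes, receptors and lysosomal hydrolases, and an engulfed cell adds protein, lipid and sterol to be handled.

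The promoter element best known from this gene family is the ER stress response element (ERSE), spelled CCAAT, then 9 bases of any kind, then CCACG. It was looked for as an exact match on both strands in RefSeq promoter windows of 300 bases (250 before to 50 after the start site, GRCm38.p6), which were found for 33 of the 37 genes. None was found for Hyou1, Manf, Derl1 and Atf6. The 10 windows that held it are shown by the stretch around the match, and Herpud1 is added for a shorter variant. Each stretch is printed 5′ to 3′ on the strand of its gene, with the matched letters in capitals. A match that runs on the other strand reads CGTGG, 9 bases, ATTGG.
Hspa5, chr2:34772010-34772058, plus strand: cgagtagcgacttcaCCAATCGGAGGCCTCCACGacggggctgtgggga
Hsp90b1, chr10:86705518-86705671, minus strand: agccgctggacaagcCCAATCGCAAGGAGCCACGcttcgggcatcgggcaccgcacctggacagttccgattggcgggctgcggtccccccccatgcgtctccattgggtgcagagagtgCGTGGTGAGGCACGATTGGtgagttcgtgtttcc
Dnajc3, chr14:118937812-118937860, plus strand: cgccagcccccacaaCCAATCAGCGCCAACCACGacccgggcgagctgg
Creld2, chr15:88819505-88819553, plus strand: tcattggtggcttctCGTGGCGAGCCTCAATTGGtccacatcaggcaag
Pdia6, chr12:17266476-17266524, plus strand: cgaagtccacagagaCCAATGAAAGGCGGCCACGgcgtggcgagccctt
Ero1lb, chr13:12565667-12565715, plus strand: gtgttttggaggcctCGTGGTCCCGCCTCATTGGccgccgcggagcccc
Calr, chr8:84847060-84847108, minus strand: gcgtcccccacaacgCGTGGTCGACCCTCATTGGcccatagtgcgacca
Canx, chr11:50325785-50325833, minus strand: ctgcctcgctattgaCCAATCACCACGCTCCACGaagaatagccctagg
Syvn1, chr19:6046517-6046565, plus strand: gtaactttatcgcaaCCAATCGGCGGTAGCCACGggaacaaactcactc
Derl3, chr10:75893227-75893275, plus strand: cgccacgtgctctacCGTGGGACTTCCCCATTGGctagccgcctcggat
Herpud1, chr8:94386302-94386402, plus strand: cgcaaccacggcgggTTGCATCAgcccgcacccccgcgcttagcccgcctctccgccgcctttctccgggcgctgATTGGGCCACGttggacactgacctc

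In these stretches the element lay in the forward direction in Hspa5, Dnajc3, Pdia6, Canx and Syvn1 and in the reverse direction in Creld2, Ero1lb, Calr and Derl3. Hsp90b1, which encodes GRP94, had 1 copy in each direction. The Herpud1 stretch carries the shorter ERSE-II, spelled ATTGG, 1 base of any kind, then CCACG, and upstream of it TTGCATCA, the composite site of C/EBP and ATF factors. How often these letters occur in all promoters, and how the genes that carry them behaved, is given after the expression values.

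All expression values are RPKM, reads scaled to gene length and library depth, so levels can be compared between genes. A change is the treated minus the untreated mean of log2(RPKM + 1), and for weakly expressed genes this scale gives a smaller change than the ratio of RPKM. A gene was called at a Benjamini-Hochberg adjusted p under 0.05 in a limma fit over all 10173 genes that reached 1 RPKM in at least 3 libraries. Depth ran from 19315132 to 25933208 mapped reads per library, so 1 read on 1 kb of gene was worth 0.0386 to 0.0518 RPKM.

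Most of the ER genes were higher in macrophages that had met apoptotic thymocytes. Of the 37 genes, 36 reached the level needed for a test, and of these 31 rose, 3 fell (Sel1l, Atf6 and Ern1) and 2 were not called (Ero1l and Ero1lb). Pdia5 is among the 31 and entered the test only through its treated values. Over all genes tested, 18.8% were called higher and 46.0% lower. The summed level of the 37 genes was 1434, 1472 and 1441 RPKM in the untreated libraries and 2704, 2758 and 2765 RPKM in the treated libraries. Every treated library was above every untreated one, and the sum was higher 1.89-fold, at 1449 ± 20.1 RPKM in untreated and 2743 ± 33.5 RPKM in treated macrophages (SD, n = 3). Calr, P4hb, Hspa5, Pdia3, Ppib and Hsp90b1 together made up 53.1 to 53.5% of this sum in untreated and 60.6 to 61.4% in treated libraries. The median ratio of the 36 tested genes was 1.55-fold. As a share of all RPKM in a library, the 37 genes went from 0.408 to 0.410% in untreated macrophages to 0.707 to 0.727% in treated macrophages. In bulk RNA of this kind, a different number of cells of a type and a different amount of RNA per cell cannot be told apart. The ranges of the treated and untreated libraries did not overlap for 34 of the 36 tested genes, 31 with the treated range above and 3 with it below. For all tested genes, 20.4% had the treated range above and 49.1% had it below. Of the 36 genes, 10 had a log2 change above 1, a size reached by 2.48% of all tested genes, and none had a log2 change below -1.

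For genes with small changes, the call and its direction depended on how the libraries were scaled. In RPKM as deposited, the median tested gene was lower in treated macrophages, with a log2 change of -0.13. The median change of the 36 ER genes was 0.61, which is 0.74 above that median gene. When the columns were rescaled by median-of-ratios factors, the median of all genes moved up by 0.15 to 0.02, and 31.9% of genes were called higher and 27.9% lower. Of the 36 ER genes, 33 were then called higher, 1 lower and 2 not called.

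**Figure D1:**
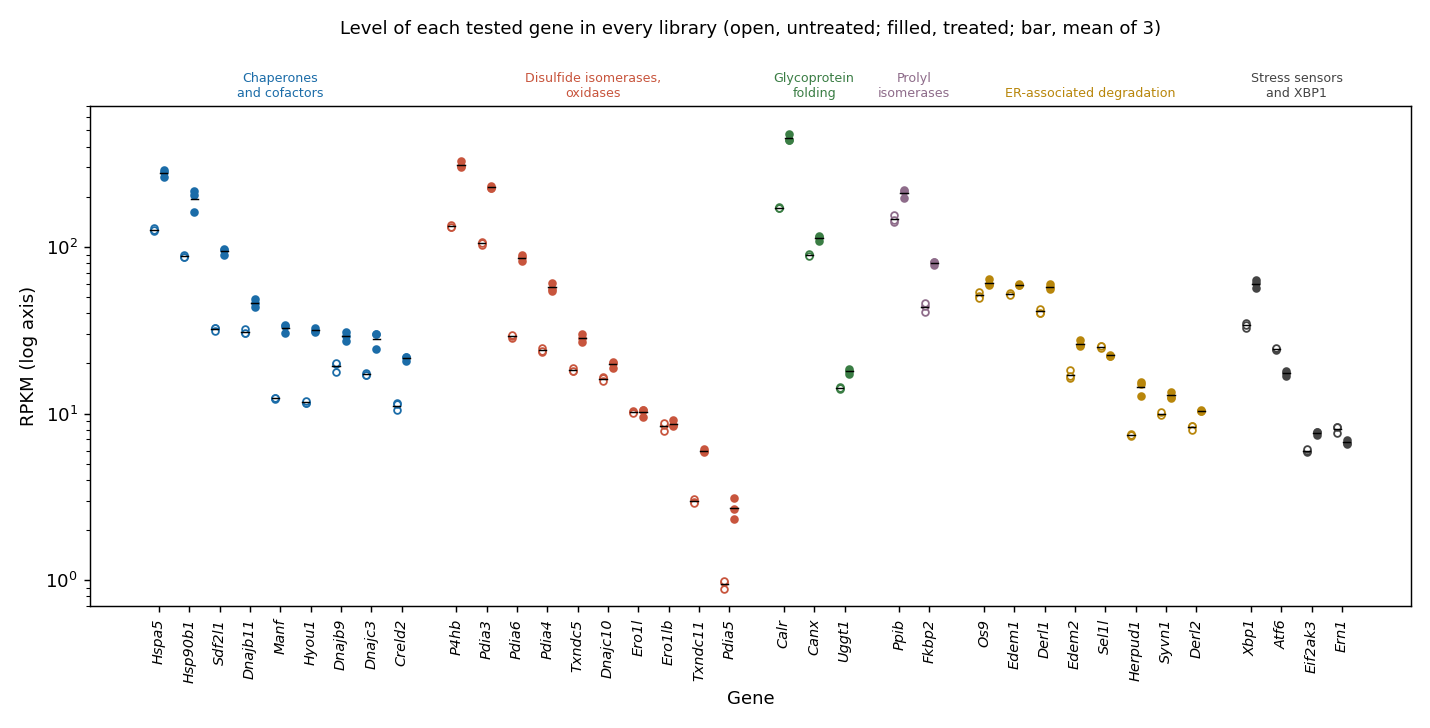
Levels of the 36 tested genes in each of the 6 libraries, in RPKM on a log axis, grouped by role, with open points for untreated and filled points for treated macrophages and a bar at the mean of 3. All treated points lie above all untreated points for 31 genes and below them for Sel1l, Atf6 and Ern1.

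All 9 genes for Hsp70 and Hsp90 chaperones and their cofactors rose, with a median log2 change of 1.12. Their summed level went from 349.8 ± 3.24 to 755 ± 37.6 RPKM (SD, n = 3), 2.16-fold. Hspa5, which encodes the Hsp70 chaperone BiP (GRP78), stood at 125, 129 and 126 RPKM in untreated and at 281, 288 and 264 RPKM in treated libraries. The 3 treated values lay far above the untreated range, and the gene rose 2.18-fold (log2 change 1.12, SE 0.0465, limma adjusted p = 5.81e-08). It lies at chr2:34771970-34776531 on mm10. Hsp90b1, the gene of the ER Hsp90 GRP94, stood at 89.8, 87.0 and 86.8 RPKM in untreated and at 218, 203 and 162 RPKM in treated libraries. Treated replicate 3 was the lowest of its group by a wide margin but still far above the untreated range, and the rise was 2.21-fold (log2 change 1.13, SE 0.0952, limma adjusted p = 7.47e-06). The SE of Hsp90b1 was the widest of the 36 genes.

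The largest log2 changes of this group belonged to less abundant partners of BiP. Sdf2l1, which encodes a lumenal cofactor that works with the J-domain protein of Dnajb11, stood at 32.5, 32.6 and 31.5 RPKM in untreated and at 89.1, 95.6 and 97.6 RPKM in treated libraries. It rose 2.92-fold (log2 change 1.52, SE 0.0466, limma adjusted p = 9.24e-09). Hyou1, the gene of the large Hsp70-like protein GRP170, a nucleotide exchange factor of BiP, stood at 11.6, 11.6 and 12.0 RPKM in untreated and at 30.9, 31.4 and 32.8 RPKM in treated libraries. That was a 2.70-fold rise (log2 change 1.36, SE 0.0435, limma adjusted p = 1.19e-08). Manf, whose product is a secreted and ER-resident factor that binds BiP, stood at 12.4, 12.3 and 12.4 RPKM in untreated and at 30.3, 33.9 and 33.7 RPKM in treated libraries, a 2.64-fold rise (log2 change 1.33). The row of Manf overlaps 2 rows of Rbm15b on the same strand, which averaged 4.31 and 5.44 RPKM in untreated and 5.51 and 5.98 RPKM in treated libraries. For Sdf2l1, Hyou1 and Manf the untreated libraries lay close together and the treated libraries formed a separate, higher range.

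The 3 J-domain cochaperone genes of this group, whose products deliver substrates to BiP and set off its ATP hydrolysis, rose 1.49- to 1.63-fold. Dnajc3 (p58IPK) went from 17.2 ± 0.284 to 28.1 ± 3.19 RPKM (SD, n = 3), 1.63-fold, with treated replicate 3 at 24.4 RPKM below the other treated values of 30.1 and 29.9 RPKM. Dnajb9 (ERdj4) rose 1.52-fold, from 19.2 ± 1.27 to 29.2 ± 1.79 RPKM. Dnajb11 (ERdj3) rose 1.49-fold, from 31.0 ± 1.07 to 46.3 ± 2.69 RPKM. Their log2 changes lay between 0.56 and 0.67. Creld2, a cysteine-rich lumenal folding factor, rose 1.92-fold, from 11.2 ± 0.531 to 21.4 ± 0.649 RPKM (log2 change 0.88, SE 0.0496, limma adjusted p = 4.36e-07).

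Among the 10 genes for disulfide isomerases and oxidases, 8 rose and 2 were not called. The 8 that rose are the genes for isomerases and other thioredoxin-fold proteins, and the 2 that were not called encode the oxidases. The group's summed level went from 348 ± 5.93 to 759 ± 20.9 RPKM (SD, n = 3), 2.18-fold. Pdia6 (P5) had the largest log2 change of the 36 genes. It stood at 28.3, 29.1 and 29.8 RPKM in untreated and at 82.6, 87.4 and 89.1 RPKM in treated libraries. The groups were far apart, and the rise was 2.98-fold (log2 change 1.54, SE 0.0452, limma adjusted p = 7.09e-09). The gene lies at chr12:17266545-17284770 on mm10. P4hb, which encodes the archetypal protein disulfide isomerase and the beta subunit of collagen prolyl 4-hydroxylase, stood at 132, 135 and 132 RPKM in untreated and at 300.4, 306 and 329 RPKM in treated libraries. It was among the most abundant transcripts of the set and rose 2.34-fold (log2 change 1.22, SE 0.0473, limma adjusted p = 3.68e-08).

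Pdia4 (ERp72) rose 2.38-fold, from 24.0 ± 0.523 to 57.1 ± 3.22 RPKM (SD, n = 3). Pdia3 (ERp57), which serves glycoproteins held by calreticulin and calnexin, stood at 102, 108 and 105 RPKM in untreated and at 227, 232 and 226 RPKM in treated libraries, a 2.18-fold rise with a log2 change of 1.11. For both genes the lowest treated value was above the highest untreated value. Pdia5 was the weakest isomerase gene, at 0.974, 0.995 and 0.887 RPKM in untreated and at 2.35, 2.67 and 3.10 RPKM in treated libraries. It entered the test only through its treated values, so that its call (log2 change 0.92) is no independent support, and it dropped out of the test when any treated library was left out. Txndc11, a membrane-bound thioredoxin-domain protein that works with EDEM lectins, rose 2.01-fold from 2.98 ± 0.0794 to 5.99 ± 0.112 RPKM. Txndc5 (ERp46) rose 1.57-fold from 18.2 ± 0.440 to 28.6 ± 1.53 RPKM. Dnajc10 (ERdj5), a J-domain protein and reductase that opens disulfides of proteins bound for degradation, rose 1.22-fold, from 16.2 ± 0.493 to 19.8 ± 0.841 RPKM.

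The ER oxidases of the ERO1 pair recharge the isomerases with oxidizing equivalents. Ero1l (ERO1 alpha) stood at 10.4, 10.2 and 10.1 RPKM in untreated and at 10.6, 10.6 and 9.55 RPKM in treated libraries. The ranges overlapped, and the log2 change had a 95% interval of -0.12 to 0.12 (limma adjusted p = 0.984). Ero1lb (ERO1 beta) stood at 7.84, 8.50 and 8.77 RPKM in untreated and at 9.14, 8.43 and 8.54 RPKM in treated libraries, again overlapping, with a log2 change of 0.05 and a 95% interval of -0.08 to 0.18 (limma adjusted p = 0.445). With median-of-ratios scaling both were called higher, at log2 changes of 0.15 for Ero1l (adjusted p = 0.0249) and 0.20 for Ero1lb (adjusted p = 0.0107).

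**Figure D2:**
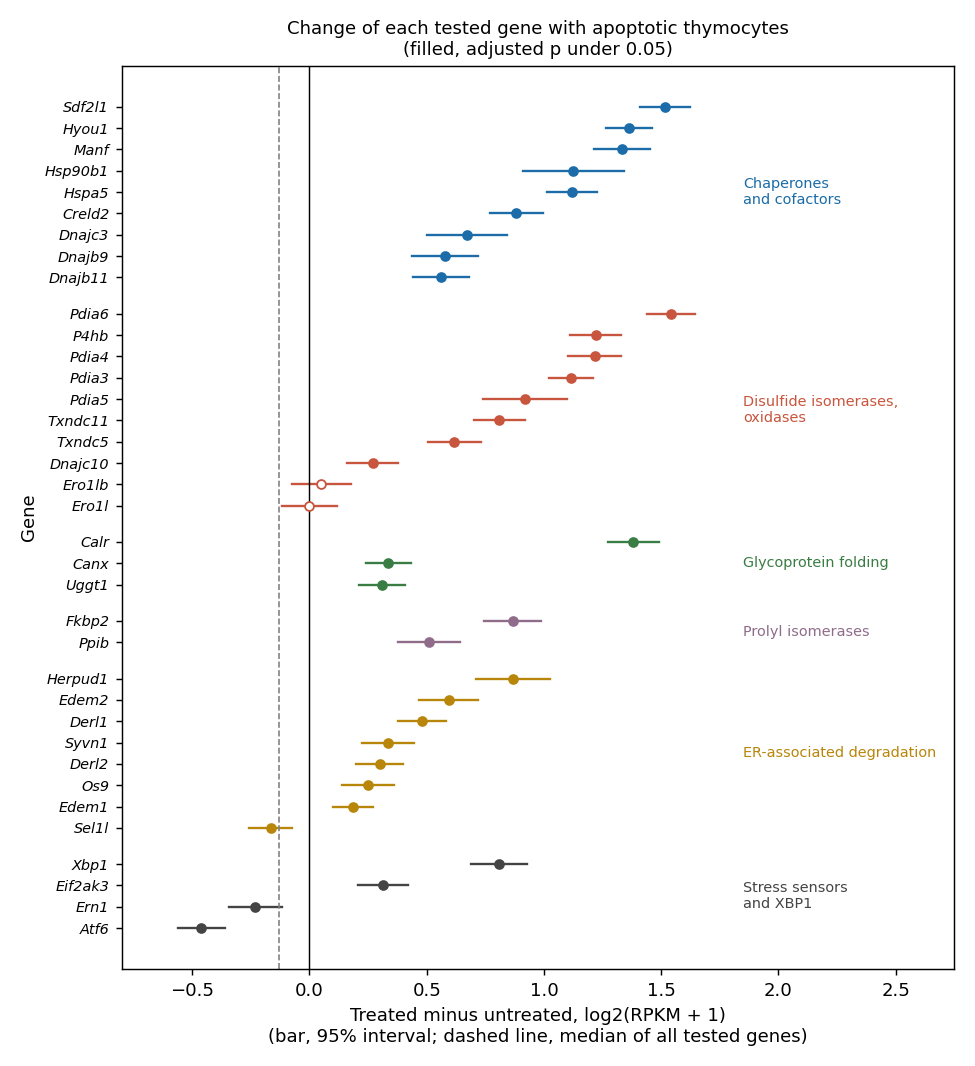
Log2 change of each of the 36 tested genes (treated minus untreated, log2(RPKM + 1) scale) with its 95% interval from limma, coloured by role, with a line at the median of all tested genes, -0.13. Pdia6 at 1.54 and Sdf2l1 at 1.52 lead the set, and Atf6 at -0.46 is the lowest.

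Both lectin chaperones and the glucosyltransferase that feeds them were higher, by unequal amounts. Calr (calreticulin, the soluble lectin chaperone and calcium store of the ER lumen) was the most abundant transcript of the 37, at 174, 171 and 170.0 RPKM in untreated and at 438, 436 and 474 RPKM in treated libraries. It rose 2.62-fold (log2 change 1.38, SE 0.0474, limma adjusted p = 1.72e-08), and it lies at chr8:84841850-84846934 on mm10. Canx (calnexin), its membrane-bound counterpart, stood at 89.9, 90.6 and 87.7 RPKM in untreated and at 116, 115 and 109 RPKM in treated libraries. The groups were apart here too, at a smaller 1.27-fold rise (log2 change 0.34, SE 0.0424, limma adjusted p = 0.000113). Uggt1, which encodes the enzyme that puts a glucose back on misfolded glycoproteins so that they return to these lectins, rose 1.26-fold, from 14.3 ± 0.278 to 17.9 ± 0.514 RPKM (SD, n = 3).

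The prolyl isomerases, which turn peptide bonds before proline, both rose. Ppib (cyclophilin B) stood at 142, 156 and 145 RPKM in untreated and at 197, 215 and 221 RPKM in treated libraries, 1.43-fold higher (log2 change 0.51, SE 0.0576). Fkbp2 (FKBP13) rose 1.84-fold, from 43.5 ± 2.77 to 80.1 ± 2.23 RPKM (SD, n = 3), with a log2 change of 0.87.

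Most of the ERAD genes rose, by at most 1.94-fold. Of 9 listed, 8 were tested, 7 rose and 1 fell, with a median log2 change of 0.32, and their summed level went from 212 ± 2.35 to 265 ± 8.55 RPKM (SD, n = 3), 1.247-fold. Herpud1, an ER membrane protein that assembles and supports the HRD1 ubiquitin ligase complex, stood at 7.501, 7.32 and 7.47 RPKM in untreated and at 12.7, 15.01 and 15.5 RPKM in treated libraries. It had the largest change of the ERAD group, 1.94-fold (log2 change 0.87, SE 0.0695, limma adjusted p = 5.1e-06). Syvn1, which encodes the ligase HRD1 itself, rose 1.29-fold, from 9.99 ± 0.262 to 12.9 ± 0.597 RPKM. Mrpl49, which overlaps Syvn1 on the opposite strand, stood at 15.2 RPKM in untreated and 13.9 RPKM in treated libraries on average.

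Sel1l, the adaptor that links HRD1 to its lumenal receptors, was the ERAD gene that fell. It stood at 25.4, 24.7 and 25.4 RPKM in untreated and at 22.3, 22.1 and 22.6 RPKM in treated libraries. The ranges were apart, with a log2 change of -0.17 (SE 0.0399, limma adjusted p = 0.00567). This fall was close to that of the median gene, and with median-of-ratios scaling it had no call (log2 change -0.0016, adjusted p = 0.977).

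The lectins and mannosidase-related factors that pick glycoproteins for degradation rose modestly. Edem2 rose 1.54-fold, from 17.1 ± 1.03 to 26.3 ± 1.15 RPKM (SD, n = 3). Os9 rose 1.19-fold, from 51.2 ± 1.99 to 61.1 ± 2.54 RPKM, and Edem1 rose 1.14-fold, from 52.0 ± 0.445 to 59.3 ± 0.676 RPKM. Of the derlins, membrane proteins of the dislocation channel, Derl1 rose 1.40-fold, from 41.0 ± 1.32 to 57.6 ± 2.14 RPKM, and Derl2 rose 1.26-fold, from 8.28 ± 0.226 to 10.4 ± 0.0697 RPKM. Derl2 overlaps Mis12 on the opposite strand, a gene at 14.3 RPKM in untreated and 13.7 RPKM in treated libraries on average. Derl3, the third derlin, was the gene below the level for a test. It stood at 0, 0.0313 and 0.260 RPKM in untreated and at 0.462, 0.427 and 0.413 RPKM in treated libraries, which rests on 0 to 16 reads per library.

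Of the 4 genes for the sensors and XBP1, 2 rose and 2 fell, beside 18.8% higher and 46.0% lower over all tested genes. With median-of-ratios scaling 2 were higher, 1 lower and 1 not called. Xbp1, the transcription factor gene whose mRNA is spliced by IRE1, stood at 32.6, 35.1 and 34.1 RPKM in untreated and at 56.7, 60.4 and 63.6 RPKM in treated libraries. It rose 1.78-fold (log2 change 0.81, SE 0.0528, limma adjusted p = 1.25e-06). Values per gene do not separate spliced from unspliced Xbp1 mRNA, and they show neither protein levels nor sensor activity. Eif2ak3 (PERK) rose 1.28-fold, from 5.99 ± 0.154 to 7.68 ± 0.183 RPKM (SD, n = 3), with a log2 change of 0.31.

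Atf6 had the largest fall of the 36 genes. It stood at 23.9, 24.5 and 24.8 RPKM in untreated and at 17.5, 18.003 and 16.8 RPKM in treated libraries. All treated values were below all untreated values, 1.40-fold lower (log2 change -0.46, SE 0.0436, limma adjusted p = 1.61e-05), and Atf6 was the gene still called lower with median-of-ratios scaling, at -0.30. Ern1 (IRE1 alpha) stood at 8.26, 7.70 and 8.30 RPKM in untreated and at 6.93, 6.60 and 6.70 RPKM in treated libraries, 1.20-fold lower (log2 change -0.23, SE 0.0498, limma adjusted p = 0.00312). Rescaled by median-of-ratios factors, Ern1 was no longer called (log2 change -0.08, adjusted p = 0.207).

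Other genes of ER folding, degradation and stress signalling, on a wider list of 93, moved in both directions. Of these, 92 were found, 80 were tested, 28 rose, 26 fell and 26 were not called, with a median log2 change of 0.02. That median lay 0.15 above the median tested gene, and over all tested genes 18.8% were called higher and 46.0% lower. With median-of-ratios scaling the counts were 46 higher, 16 lower and 18 not called, beside 31.9% higher and 27.9% lower over all genes. The rises were led by Serp1, a small partner of the translocon that protects nascent membrane proteins, which stood at 77.4, 81.2 and 82.8 RPKM in untreated and at 166, 174 and 169 RPKM in treated libraries. That was 2.11-fold higher (log2 change 1.07, limma adjusted p = 5.32e-08), with the groups far apart. Mcfd2, a cargo receptor subunit for glycoprotein export, rose 1.81-fold to 96.7 RPKM. Vimp (selenoprotein S), which recruits the ATPase p97 to the ER membrane, rose 1.71-fold to 75.6 RPKM, and Vcp, the gene of p97, rose 1.52-fold, from 84.1 to 128 RPKM. Mlec (malectin) rose 1.64-fold to 53.1 RPKM and Erp44 rose 1.502-fold to 24.5 RPKM.

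The falls in the wider list were led by Tmx4, a transmembrane thioredoxin-related protein, which stood at 10.8, 11.04 and 11.04 RPKM in untreated and at 4.06, 3.86 and 4.06 RPKM in treated libraries (log2 change -1.26, limma adjusted p = 2.59e-08). Man1a, a mannosidase of the early Golgi, fell from 10.7 to 6.29 RPKM, the ubiquitin ligase gene March6 from 23.5 to 15.7 RPKM, the cyclophilin gene Ppic from 3.61 to 1.83 RPKM and the lumenal chaperone gene Erp29 from 33.2 to 21.9 RPKM. By role, 4 of 9 tested chaperone and cofactor genes of the wider list rose and 1 fell, 3 of 14 disulfide and redox genes rose and 6 fell, and 10 of 26 degradation genes rose and 6 fell. Of its 18 tested stress signalling genes, 5 rose and 9 fell. Trib3 is among the 9 and entered the test through its untreated values. The shares of the disulfide and redox genes and of the signalling genes are nearest to the 18.8% higher and 46.0% lower of all tested genes. Among the chaperone and cofactor genes and the degradation genes, a larger share rose and a smaller share fell. After median-of-ratios scaling, 8 of the 9 chaperone and cofactor genes were called higher and 1 lower, 6 of the 14 disulfide and redox genes higher and 4 lower, 18 of the 26 degradation genes higher and 4 lower, and 7 of the 18 signalling genes higher and 4 lower. Before rescaling, the median log2 changes were 0.17 for the chaperones and cofactors and -0.11 for the disulfide and redox genes, beside 1.12 and 0.87 for the genes described above.

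**Figure D3:**
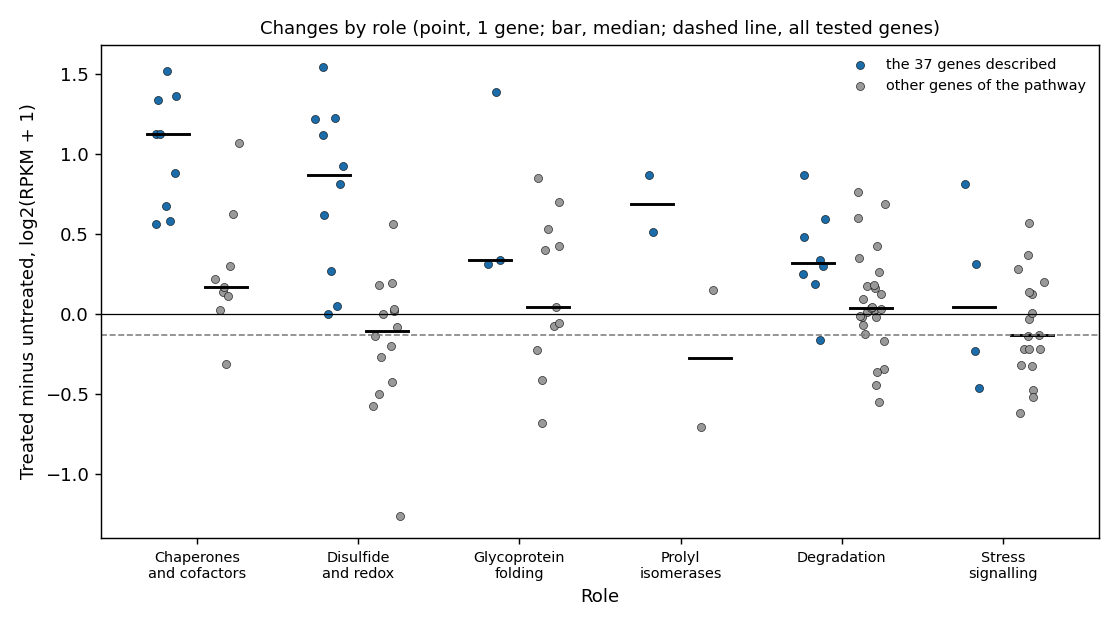
Log2 change (treated minus untreated, log2(RPKM + 1) scale) by role, 1 point per tested gene, for the genes described here in blue and the other genes of the pathway in grey, with a bar at each median and a dashed line at the median of all tested genes, -0.13. The blue chaperone and disulfide genes centre on 1.12 and 0.87, and the grey genes of the same roles on 0.17 and -0.11.

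Of the genes given here that act below PERK, Atf4, Trib3 and Ddit3 fell, Ppp1r15a was not called and Ppp1r15b rose. Falls were common in these data: 46.0% of all tested genes were called lower, and the median log2 change was -0.13. Mbtps1 and Atf6b, given last, relate to ATF6. Atf4, the factor translated when eIF2alpha is phosphorylated, stood at 91.4, 98.5 and 93.8 RPKM in untreated and at 66.7, 67.0 and 69.7 RPKM in treated libraries, 1.39-fold lower (log2 change -0.47, limma adjusted p = 1.55e-05). Trib3, a pseudokinase gene induced by ATF4, fell from 1.62 ± 0.179 to 0.837 ± 0.254 RPKM (SD, n = 3). It entered the test through its untreated values, so that its call is no independent support. Treated replicates 1 and 3 were below the level for a test, at 0.617 and 0.779 RPKM, and the treated libraries held 34 to 54 reads. Ddit3, which encodes the factor CHOP, fell from 10.7 ± 0.501 to 9.04 ± 0.160 RPKM (log2 change -0.22, limma adjusted p = 0.00357), and it was not called after rescaling (log2 change -0.07, adjusted p = 0.281). Ppp1r15a (GADD34), the phosphatase subunit that resets eIF2alpha, stood at 13.5 ± 1.08 RPKM in untreated and at 13.1 ± 0.591 RPKM in treated libraries and was not called (limma adjusted p = 0.681). Ppp1r15b, the other such subunit, named here after its values were seen, rose from 18.3 ± 0.189 to 22.5 ± 0.828 RPKM (log2 change 0.28, limma adjusted p = 0.000449). Mbtps1, the Golgi protease that cuts ATF6, fell from 18.7 to 14.8 RPKM (log2 change -0.32, and -0.16 after rescaling). Atf6b, the paralog of Atf6, was called higher at 1.09-fold, from 25.4 to 27.8 RPKM (log2 change 0.13, limma adjusted p = 0.0259), but the call did not hold without untreated replicate 1, 2 or 3 or without treated replicate 2 (adjusted p of 0.105, 0.0585, 0.066 and 0.0834).

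The ERSE letters occurred in the windows of 10 of 33 genes of the set, or 30.3%. In the same windows of all genes in the RefSeq table they occurred in 37 of 27025 genes, or 0.137%. The element was first defined on promoters of this kind of gene, so this share is not independent of the choice of genes. All 11 matches in the set lay upstream of the RefSeq start site, at varied distance. The Hspa5 match lay at -65 to -47 from the RefSeq start site, that of Pdia6 at -98 to -80, that of Calr at -162 to -144 and that of Syvn1 at -44 to -26. ERSE-II was found in 2 of the 33 windows (Herpud1 and Dnajb11) and in 12 of all 27025 genes. The XBP1 and ATF6 site TGACGTGG was found in 2 windows (Txndc5 and Txndc11) and in 0.714% of all genes. Its letters contain CGTGG, which is the CCACG end of the ERSE read on the other strand. TTGCATCA was found in Herpud1 and in 1.03% of all genes.

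Of the 9 tested genes with the ERSE, 8 rose, and Ero1lb was not called. Of all 36 tested genes of the set 31 rose, so this count does not set the genes with the ERSE apart. Over all tested genes 18.8% were called higher. The 9 genes with the ERSE had a median log2 change of 0.88, and the 23 tested genes with a window but no ERSE match had 0.58. This difference was not tested. The range within the genes that carry the element was broad: Pdia6 at 1.54 and Calr at 1.38 stood beside Canx at 0.34, Syvn1 at 0.34 and Ero1lb at 0.05. Sdf2l1 and P4hb, at 1.52 and 1.22, had no exact match in their windows. Across the table, 5 further tested genes held the ERSE. Alg12, a mannosyltransferase gene of glycan assembly, lies head to head with Creld2, 327 bases away, so that both windows hold the same match at chr15:88819520-88819538. Alg12 rose with a log2 change of 0.38 and Adcy3 with 0.51, Pan2 fell with -0.25, and Hnrnpa3 and Xlr3b were not called.

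**Figure D4:**
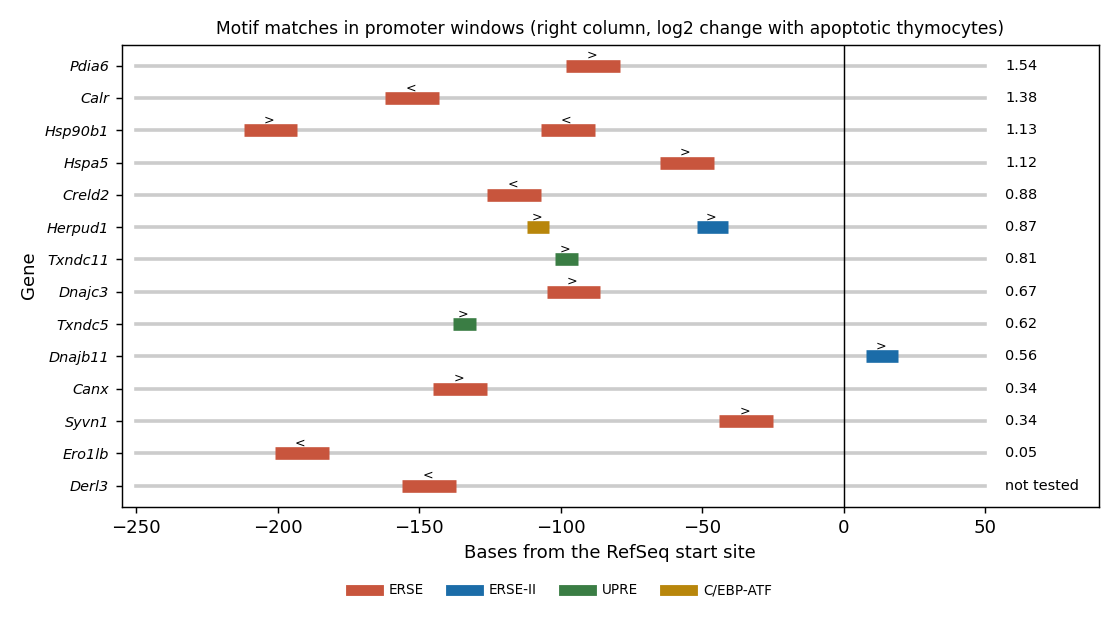
Positions of exact motif matches, in bases from the RefSeq start site, in the promoter windows of the 14 genes that hold any, ordered by log2 change (right column), with arrowheads for the direction of the match. ERSE matches run from -212 in Hsp90b1 to -26 in Syvn1, and the genes that carry one range from 0.05 (Ero1lb) to 1.54 (Pdia6).

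Other RNA moved alongside these changes. Markers of thymocytes and T cells were at or near 0: 14 of 15 were under 0.1 RPKM in every treated library, 5 of them (Cd3e, Cd8b1, Rag2, Ptcra and Themis) were at 0 in all 6 libraries, and the summed level was 4.58 to 5.03 RPKM in untreated and 2.11 to 2.53 RPKM in treated libraries, nearly all of it from Cd4. Plasma cells are rich in ER chaperones, and the 10 markers of B cells and plasma cells summed to 24.4 to 24.7 RPKM in untreated and to 8.53 to 8.84 RPKM in treated libraries, led by Sdc1 and Prdm1, both lower, with Pax5 at 0 in all 6. The 8 neutrophil markers summed to 0.248 to 0.410 RPKM in untreated and 3.76 to 4.30 RPKM in treated libraries, led by Ngp, with Ly6g at 0 in all 6. The 7 dendritic cell markers summed to 0.227 to 0.301 RPKM in untreated and 0.0625 to 0.208 RPKM in treated libraries. All 11 macrophage markers were present. Of these, 3 rose, 7 fell and 1 was not called, beside 46.0% lower over all tested genes, and after median-of-ratios scaling 4 were higher, 4 lower and 3 not called. Of the 3 most abundant, Lyz2 went from 13388 to 19419 RPKM on average and C1qb from 1200.01 to 1827 RPKM, and Cd68 from 1274 to 1144 RPKM, a call lost after rescaling. The 4 that were lower under both scalings, named after their values were seen, were Fcgr1 (52.7 to 7.43 RPKM, 7.09-fold lower), Cd14 (199.97 to 50.5 RPKM, 3.96-fold lower), Itgam (119 to 33.1 RPKM, 3.61-fold lower) and Csf1r (536 to 359 RPKM, 1.49-fold lower). The thymocytes had been treated with dexamethasone, and of 8 genes known to be induced by glucocorticoids 6 rose, 1 fell and 1 was not called, beside 18.8% higher over all tested genes. Zbtb16 is among the 6 and entered the test only through its treated values. Fkbp5 went from 1.998 to 73.2 RPKM, Tsc22d3 from 14.8 to 77.4 RPKM, Klf9 from 1.73 to 15.1 RPKM, Zbtb16 from 0.607 to 5.15 RPKM, Per1 from 4.57 to 16.04 RPKM and Dusp1 from 21.004 to 36.5 RPKM, while Errfi1 went from 3.18 to 2.39 RPKM and Sgk1 had a mean of 22.9 RPKM in both groups and was called higher after rescaling (log2 change 0.17, adjusted p = 0.0106). The part of glucocorticoid, of the marker changes or of any other difference between the groups in the ER gene changes was not tested.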

How the data were processed

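Poly(A) RNA was sequenced from 2 groups of 3 cultures of macrophages as strand-specific TruSeq libraries, per the labels' protocols. The authors deposited RPKM values per gene, per the file headers, on mouse GRCm38 (mm10), per the submitters' processing notes. How reads were aligned and counted, with which gene model, whether by strand, and what was done with reads shared between near-identical genes is not given in the sources used here, so values of overlapping genes or genes with close copies or pseudogenes are uncertain. Depth and reads were recovered from the RPKM steps, as the depths and gene lengths that make reads whole within 0.001 (members: 18 with the GENCODE M21 length, 19 with a searched length up to 30000 bp). Intervals of reads would cover counting error only.

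A count test was not run, since the unit is RPKM. Genes that reached 1 RPKM in at least 3 libraries were fitted as log2(RPKM + 1) with limma 3.58.1 under R 4.3.3, using an intensity trend and no block, adjusted by Benjamini-Hochberg over all 10173 genes and called at 0.05. The procedure was tested on simulated data. The 37 genes, the wider list, the marker lists and the tests were chosen with earlier results of these data known. Named are all 37 genes, from the wider list the 6 called genes with the smallest p in each direction and Atf4, Ddit3, Ppp1r15a, Trib3, Atf6b and Mbtps1, up to 3 genes per cell type and all glucocorticoid genes; genes with the ERSE outside the list and markers at 0 are named as well. Promoter sequences are those of RefSeq on GRCm38.p6. Protein features had been planned and were not run. The alternatives were 2 other scalings, a pseudocount of 0.1, other filters, no trend, a replicate block and leaving out each library.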

Additional observations from a re-analysis of the deposited data

How the results depend on the processing

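Over 13 alternatives, 455 of 465 values for the 36 tested genes kept their direction and their side of the threshold, and 32 genes did so wherever they were tested. Among them, Pdia5 was not tested without treated replicate 1, 2 or 3. With median-of-ratios scaling 1 of the 36 genes was called lower, the median log2 change was 0.77, the wider list had 46 higher and 16 lower, and all genes 3234 higher and 2832 lower. With upper-quartile scaling these were 1, 0.77, 46, 16, 3280 and 2814. Under these scalings Ero1l moved to 0.15 and 0.16 and Ppp1r15a to 0.13 and 0.13, and under upper-quartile scaling Sel1l moved to 0.0017. In these data the median-of-ratios factors were 1.06 to 1.07 in untreated and 0.935 to 0.954 in treated libraries. Dividing by these factors, or by the similar upper-quartile factors, raised treated against untreated columns.

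Leaving out 1 library gave 30 to 31 of the set higher and 3 to 3 lower, 20 to 29 of the wider list higher and 22 to 29 lower, 1549 to 1949 of all genes higher and 3657 to 4708 lower, and a median of 0.58 to 0.64. The sign of 3 genes near 0 changed: Ero1l ranged from -0.023 to 0.042, Sgk1 from -0.022 to 0.015 and Ppp1r15a from -0.10 to 0.0016.

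With the replicate block, 31 of the set were higher and 3 lower, and of all genes 1904 were higher and 4627 lower. The numbers in the titles were not taken as pairs: deviations of same-numbered libraries correlated at 0.197, -0.031 and -0.162, and untreated replicate 2 correlated best with treated replicate 3, at 0.326.

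Depth limits Derl3 (0 to 16 reads), Pdia5 (from 34 reads) and Trib3 (34 to 54 reads in treated libraries). All values are limited by 1 time point with 3 libraries per group.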

Other observations

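A split by place in the cell was made after the values were seen and has no test. Edem1 (log2 change 0.19) and Xbp1 (0.81), both called higher, were put in neither group, while Edem2 was counted as soluble. The 24 tested genes with products soluble in the ER lumen had a median log2 change of 0.87, with 22 called higher and none lower. Pdia5 is among the 22 and entered the test only through its treated values. The summed level of these 24 genes was 2.06-fold higher with apoptotic thymocytes. The 10 tested genes whose products span the ER membrane had a median log2 change of 0.32, with 7 called higher and 3 lower. Their summed level was 1.21-fold higher. Over all tested genes 18.8% were called higher and 46.0% lower. With median-of-ratios scaling all 24 soluble genes were called higher, and of the 10 membrane genes 7 were higher, 1 lower and 2 not called. The shares over all genes were then 31.9% higher and 27.9% lower. The pair of lectin chaperones falls on both sides of this split, with soluble Calr at 1.38 and membrane-bound Canx at 0.34.

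Several paralog pairs, also picked after their values were seen, had unlike values. Sdf2l1 had a log2 change of 1.52 and Sdf2, its close relative, 0.11 without a call. Herpud1 was at 0.87 and Herpud2 at 0.04 without a call. Edem1 was at 0.19 and Edem3 at -0.41, both called. Ppib was at 0.51 and Ppic at -0.70, both called. Other pairs moved alike. Creld2 and Creld1 both rose, by 0.88 and 0.63, as did Derl1 and Derl2, by 0.48 and 0.30. Ero1l and Ero1lb were both not called. The difference within a pair was not tested.

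Across the 36 tested genes, log2 change and gene length had a Spearman rho of -0.56, and across 4809 tested genes with a recovered length the rho was -0.13. These are descriptions over genes that share the same 6 libraries, and RPKM itself contains the length. The untreated level and the change had a rho of 0.25 over the 36 genes.

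Within the treated group, replicate 1 was the lowest library for 22 of the 36 genes and replicate 3 the highest for 22 (61.1% in each case, against 42.7% and 43.5% over all tested genes). Replicate 3 was the lowest for 9 of the 36 genes, Hsp90b1 and Dnajc3 among them (25%, against 36.0% over all tested genes).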
